A study of Mus musculus with 27 samples.

Results

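The 4 genes described here, Tmem132b, Ky, Ostn and 6430571L13Rik, were chosen by their values in skeletal muscle: of 36333 genes in the deposited table, they were those with the largest rise between 5 and 20 months of age. Their difference between the ages in muscle is therefore given as a description without a test, and tests were made only in adipose tissue, in liver and between those tissues. The samples came from male MlxKO mice, in which Mlx, the shared partner of the glucose-responsive transcription factors ChREBP and MondoA, was to be deleted throughout the body; by the study's own measurements Mlx message was reduced but not gone in these muscles. All mice carried Mlx Flox/Flox and the allele Gt(ROSA)26Sortm1(cre/ERT2)Tyj, on a B6.129 background, whose CreER is driven by the ubiquitously active ROSA26 locus, and all had received 5 daily injections of tamoxifen at 75 mg/kg into the peritoneum at weaning, once they weighed enough. Skeletal muscle, omental adipose tissue (abdominal adipose tissue in the study's text) and liver were each represented by 4 samples at 5 months and 5 samples at 20 months, 27 in all. The same 4 mice gave the 3 tissues at 5 months, as the numbers in the sample names show; they are called here mice A, B, C and D, after the muscle samples SK-X5S4299, SK-X5S5001, SK-X5S5238 and SK-X5S5239. The numbers at 20 months (muscle 56 to 60, adipose tissue 36 to 40, liver 16 to 19 and 74) were not shared between tissues. The names of these samples carry X18, and the study's list of animals gives 18 months for animals whose numbers end in the same digits. Their age label says 20 months. The label is used here, and the age itself is uncertain to that extent. WT samples were not analysed here, so the age difference is that of MlxKO mice only, and the sources used here do not say which muscle was taken.

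Osteocrin (Ostn, also called musclin) is a small secreted peptide of muscle and bone that resembles the natriuretic peptides and binds their clearance receptor, Npr3, which removes natriuretic peptides from the circulation. Ky encodes the kyphoscoliosis peptidase, a transglutaminase-like protein of the muscle Z-disc, the structure that anchors the thin filaments; its loss in mice causes a spinal deformity and muscle weakness, and it has been linked to filamin C (Flnc) and Igfn1. Tmem132b is one of a family of large single-pass membrane proteins known mainly from the nervous system, and 6430571L13Rik is a protein-coding gene named only by its cDNA clone.

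Positions are from RefSeq and GENCODE on GRCm38. All 4 genes lie on the plus strand. Tmem132b (gene ID 208151) spans 125532418 to 125792583 on chromosome 5, and its annotated exons cover 8238 bases. Ky (gene ID 16716) spans 102505755 to 102546247 on chromosome 9, with 5879 exonic bases. 6430571L13Rik (gene ID 235599) lies on the same chromosome at 107340640 to 107349683, 4794393 bases beyond the end of Ky, with 2912 exonic bases. Ostn (gene ID 239790) spans 27307641 to 27351209 on chromosome 16, with 1423 exonic bases. Of the annotated genes that overlap them, Gm32312, which is antisense to Ostn, Gm32811 within Tmem132b, and 4930429P21Rik, which is antisense to the end of 1 of the 6430571L13Rik transcripts, were in the table. Gm32312 did not exceed 0.145 in any muscle, 4930429P21Rik did not exceed 0.0713, and Gm32811 was at 0 in each, so reads of these neighbours were few. The setting for strand in the counting is not given in the sources used here.

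The bases before the RefSeq start of Tmem132b and 6430571L13Rik are shown because Mlx-containing dimers bind E-boxes (CACGTG) in promoters, and because the promoter of Tmem132b has an unusual composition. RefSeq promoter windows on GRCm38.p6 were found for 3 of the 4 genes. The window of Ky lies wholly in its annotated first exon and is not printed, and the other windows are printed up to the first base of an annotated exon. Tmem132b is shown at chr5:125532168-125532386, plus strand, with its longest run of C and T, 67 bases, in capitals. 6430571L13Rik is shown at chr9:107340390-107340601, plus strand, with both CCAAT matches in capitals.
Tmem132b: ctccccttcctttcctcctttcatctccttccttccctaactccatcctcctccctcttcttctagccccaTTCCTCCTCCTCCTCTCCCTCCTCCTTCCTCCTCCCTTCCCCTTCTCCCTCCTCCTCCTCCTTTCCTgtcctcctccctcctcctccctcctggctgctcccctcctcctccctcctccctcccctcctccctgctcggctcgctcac
6430571L13Rik: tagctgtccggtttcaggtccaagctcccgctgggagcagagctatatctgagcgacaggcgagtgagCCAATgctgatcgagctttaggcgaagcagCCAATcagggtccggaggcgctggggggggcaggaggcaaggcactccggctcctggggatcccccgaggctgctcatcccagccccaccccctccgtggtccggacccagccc

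Over the 250 bases before the start, 86.8% of the Tmem132b letters were C or T, against a median of 50% over 32851 promoters, and 3 promoters of all of them, itself included, had a share as high. The shares of Ky (48.4%) and 6430571L13Rik (49.2%) lay near that median. The Ky window, from 102505888, lies inside the gene span, so its letters are exon bases. The bases before 102505755 were not searched. CACGTG had 0 matches in each of the 3 windows and was held by 6.02% of all promoters, searched on both strands. The wider E-box CANNTG, which includes CACGTG and the sites of myogenic factors, had 1 match in Ky and 0 in the other windows, against 66.2% of promoters with at least 1. The carbohydrate response element (a pair of E-box-like sites with a spacer between them), held by 0.0274% of promoters, and the MEF2 motif, held by 2.92%, had 0 matches in the 3 windows. CCAAT, searched after the sequences were seen, occurred at 2 places in 6430571L13Rik and in none of the other windows, and was held by 33.8% of promoters. A match or its absence in these windows is a description of the letters only.

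The deposited value of a gene is its CPM (reads of the gene per 1000000 reads on genes), divided by a further factor for each sample, and is called here scaled CPM. Reads on genes ranged from 14384695 to 17961438 in muscle, and 3 reads corresponded to 0.196 to 0.242 scaled CPM there. Mlx was read in every sample, at 7.04 to 11.6 in muscle, 8.19 to 13.9 in adipose tissue and 18.8 to 32.4 in liver; without WT samples, and with part of its exons outside the deleted segment, these values do not check the deletion. The 12 muscle fibre markers summed to 196366 to 255455 in the muscles and to 132 to 1180 in adipose tissue. Some muscles stood apart in other genes. Hspa1b, a heat shock protein gene, stood at 4038 and 1071 in the 5-month muscles of mice B and D, at 106 and 139 in the other 5-month muscles, and at 11.4 to 47 at 20 months. Myh7, the slow myosin, stood at 1171 in the muscle of mouse A and at 42.4 to 209 in the other 8. The 8 hepatocyte markers summed to 406 in the muscle of mouse C and to 0.143 to 76.5 at 20 months.

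Tmem132b was scarcely read in young muscle and was present in every old one. At 5 months it stood at 1.08, 0.887, 1.57 and 1.32 scaled CPM in mice A, B, C and D, from 11 to 20 reads per sample. At 20 months it stood at 13.8, 15.5, 17.1, 10.1 and 11.8 in samples 56 to 60, from 137 to 236 reads. The groups lay far apart, with the lowest old muscle 6.43 times the highest young one and a spread within either age of under 2-fold (1.77 and 1.7 times from lowest to highest). The means were 1.21 ± 0.295 (SD, n = 4) and 13.6 ± 2.81 (SD, n = 5), an 11.2-fold ratio, and the difference of log2(value + 1) was 2.71 with an SE of 0.166.

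Ky, the Z-disc peptidase, had the highest mean scaled CPM of the 4 genes at 20 months and the widest spread then; per kilobase of exon, below, the mean of Ostn was higher, and in sample 56 Ostn was higher on either scale. It stood at 8.45, 8.14, 11.4 and 24.9 in mice A, B, C and D. In samples 56 to 60 it stood at 32.1, 71.4, 124, 88.4 and 143. Every old muscle was above every young one, but the gap was narrow, the lowest old value (sample 56) being 1.29 times the highest young value (mouse D). The old muscles differed among themselves by 4.46-fold. The means were 13.2 ± 7.94 (SD, n = 4) and 91.8 ± 43.8 (SD, n = 5), a 6.94-fold ratio, and the log2 difference was 2.68 with an SE of 0.41.

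Ostn, the secreted peptide, stood at 13.8, 8.71, 5.79 and 3.76 in mice A, B, C and D. In samples 56 to 60 it stood at 32.9, 22.5, 34.9, 24.5 and 33.7. Here the young muscles were the more spread (3.68-fold) and the old ones lay within 1.55-fold of each other, and the lowest old value was 1.63 times the highest young one. The means were 8.02 ± 4.37 (SD, n = 4) and 29.7 ± 5.74 (SD, n = 5), a 3.71-fold ratio, with a log2 difference of 1.87 and an SE of 0.275.

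6430571L13Rik stood at 0.999, 1.29, 3.84 and 7.46 in the 4 young muscles in the same order. In samples 56 to 60 it stood at 7.95, 12.3, 23.4, 12.4 and 19.5. The ages barely separated, since sample 56 was 1.07 times the muscle of mouse D, and the young values ranged over 7.46-fold. The means were 3.4 ± 2.99 (SD, n = 4) and 15.1 ± 6.19 (SD, n = 5), a 4.45-fold ratio, with a log2 difference of 2.03 and an SE of 0.409. Thus 4 of 4 genes had every old muscle above every young one, where 8.63% of the 12720 genes tested in muscle did; this follows from how the genes were chosen, and nothing is read from it.

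**Figure D1:**
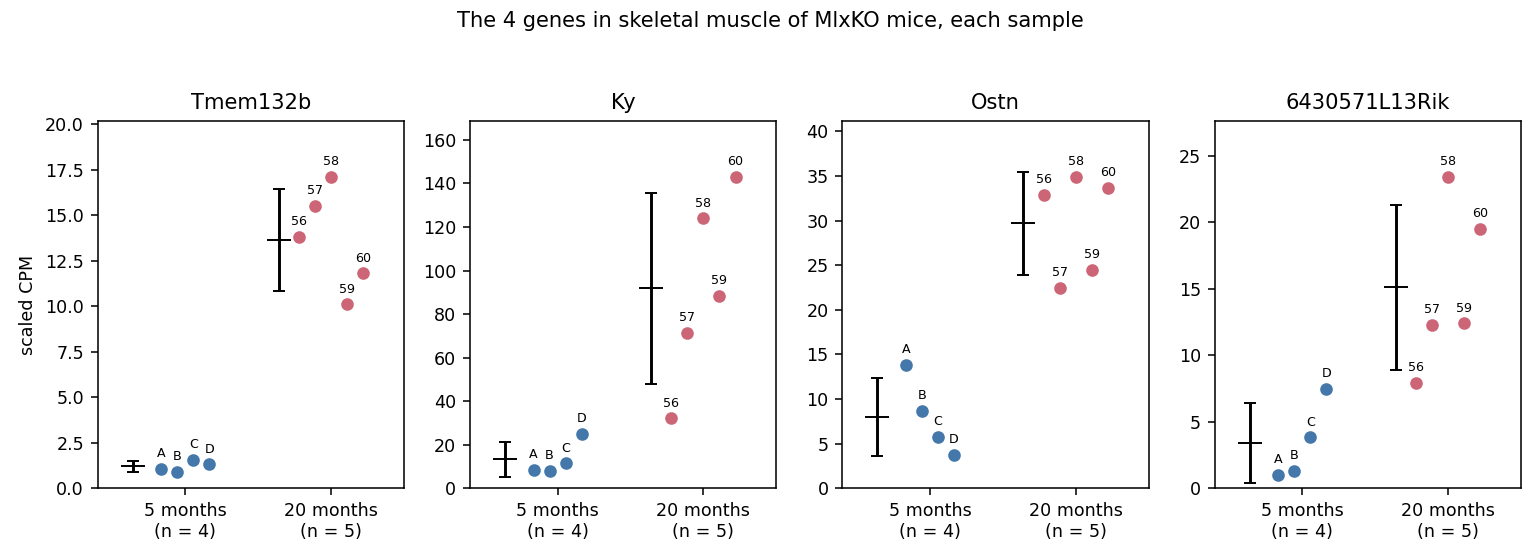
Scaled CPM (vertical axis, linear, from 0) of Tmem132b, Ky, Ostn and 6430571L13Rik in skeletal muscle of MlxKO mice at 5 months (blue, n = 4) and 20 months (red, n = 5). Each point is 1 sample, with the letter of its mouse at 5 months and the sample number at 20 months. The bar and whiskers to the left of each group are its mean and SD. The groups are far apart for Tmem132b (at most 1.57 against at least 10.1) and nearly meet for 6430571L13Rik (7.46 against 7.95).

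The order of the genes by size depended on the scale. On log2(value + 1), Tmem132b, Ky, 6430571L13Rik and Ostn ranked 1, 2, 3 and 4 of the 12720 genes. The next gene, Gm10698, was just outside at 1.85, beside 1.87 for Ostn. With edgeR on the recovered reads, which adds no constant of 1, the difference of Tmem132b was 3.48 and it ranked 1, but 6430571L13Rik (2.14) ranked 13 and Ostn (1.89) ranked 24. Without the 5-month muscles of mice B and D, the log2 differences were 2.64 for Tmem132b, 2.93 for Ky, 1.59 for Ostn and 2.28 for 6430571L13Rik.

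The 5 genes that followed were, besides the uncharacterized Gm10698 and F830016B08Rik, Dach2, Dkk3 and Zbed6. Dach2, a transcriptional cofactor of the response of muscle to loss of its nerve, stood at 4.43 to 5.99 at 5 months and at 17.2 to 24.1 at 20 months, and like Tmem132b it varied little within an age. Dkk3, a secreted glycoprotein of the Dickkopf family, stood at 52.9 to 68.7 and at 179 to 221. Zbed6, a transcriptional repressor of Igf2 that derives from a DNA transposon, stood at 5.56 to 17.4 and at 28.5 to 39.7. Their log2 differences were 1.80, 1.71 and 1.70.

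Levels of different genes were compared per kilobase of exon. At 5 months the order was Ostn (mean 5.64 scaled CPM per kilobase), Ky (2.25), 6430571L13Rik (1.17) and Tmem132b (0.147). At 20 months it was the same, with 20.9 for Ostn, 15.6 for Ky, 5.19 for 6430571L13Rik and 1.65 for Tmem132b. Neighbours in this order overlapped between samples at both ages, except 6430571L13Rik and Tmem132b: at 5 months the lowest 6430571L13Rik level (0.343) was above the highest Tmem132b level (0.19), and at 20 months the same held (2.73 against 2.07). Ostn and Ky overlapped widely at 20 months, at 15.8 to 24.6 and 5.46 to 24.4.

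Within an age, Ky and 6430571L13Rik rose and fell together across the muscles, and Ostn did not follow them. The young muscle with the highest Ky, that of mouse D, also had the highest 6430571L13Rik and the lowest Ostn; that of mouse A had the lowest 6430571L13Rik and the highest Ostn. Among the old muscles, sample 56 was lowest for Ky and for 6430571L13Rik, and samples 58 and 60 were the highest for both. The Pearson correlation of the deviations from the age means of log2(value + 1), over 9 muscles, was 0.88 for Ky with 6430571L13Rik, -0.42 for Ky with Ostn and -0.63 for 6430571L13Rik with Ostn. The negative values came from the young muscles, where the correlation of Ostn with Ky was -0.87 and with 6430571L13Rik -0.96 over 4 samples; over the 5 old muscles these were 0.14 and 0.38. Tmem132b had weak correlations with Ky (0.11) and Ostn (-0.20) and 0.42 with 6430571L13Rik. These coefficients are descriptions of few samples that share library and scaling. The ratio of Ky to 6430571L13Rik within a sample ran from 2.98 to 8.46 in young and from 4.03 to 7.36 in old muscle, and the ratio of Ostn to Ky from 0.151 to 1.64 and from 0.235 to 1.03. The ages overlapped for both ratios, and the ratio of Ostn to Ky varied more among the samples of an age.

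**Figure D2:**
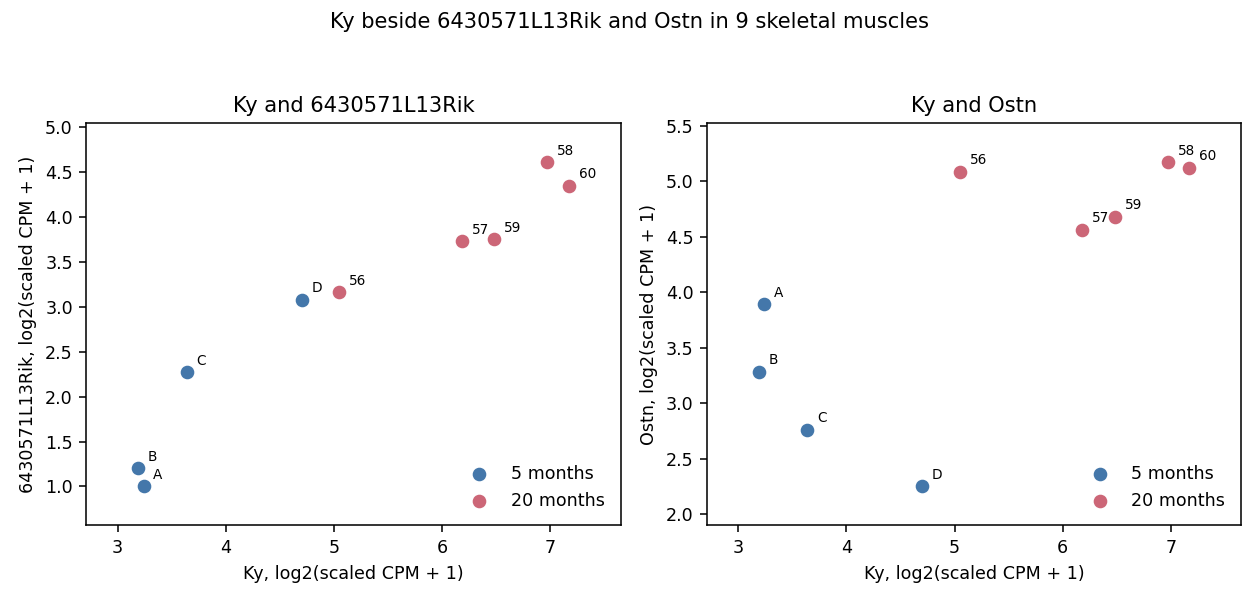
Ky (horizontal axis) beside 6430571L13Rik (left panel) and Ostn (right panel) in 9 skeletal muscles, all as log2(scaled CPM + 1), with 5 months in blue and 20 months in red. Beside each point is the letter of the mouse (5 months) or the sample number (20 months). 6430571L13Rik follows Ky within both ages, while Ostn falls as Ky rises among the 4 young muscles and shows no such order among the 5 old ones (r = 0.14).

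Other muscle genes of sample 56 and mouse A also lay at the edge of their groups. Sample 56, lowest of the old muscles for Ky and 6430571L13Rik, was the highest of them for Flnc (7110 against 2032 to 3362) and for Trim63, a ubiquitin ligase of muscle atrophy (1728 against 670 to 1084). Without sample 56 the log2 differences were 3.01 for Ky and 2.22 for 6430571L13Rik. The muscle of mouse A, highest of the young for Ostn, was the one with the high Myh7. The part of these features in the members' values was not tested. In bulk tissue, a change in the share of cells that express a gene and a change in RNA per cell cannot be told apart.

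The genes whose pattern over the 9 muscles was most like that of each member were sought among 9723 genes with a mean muscle value of at least 5, by Pearson's r of log2(value + 1). For Tmem132b these were Cds1, a phospholipid-synthesis enzyme (r = 0.986), Zfp367 (0.983) and Pter (0.982). Cds1 averaged 2.17 ± 0.365 in young (SD, n = 4) and 7.27 ± 0.837 in old muscle (SD, n = 5). For Ky they were Rcan3, a regulator of calcineurin (0.975), Cyp4f39 (0.975) and Mettl11b (0.974). For 6430571L13Rik they were Zmynd19 (0.982), Arhgef10l (0.982) and Ston2, an endocytic adaptor (0.975). For Ostn they were Itfg1 (0.974), Vps50, a subunit of an endosomal recycling complex (0.973), and Cpped1, a phosphatase (0.971). The age difference sets much of each r. For the deviations from the age means, r was 0.57, 0.57 and 0.82 for the genes named beside Tmem132b, 0.88, 0.88 and 0.87 for those beside Ky, 0.94, 0.95 and 0.92 for those beside 6430571L13Rik, and 0.86, 0.95 and 0.84 for those beside Ostn. Mettl11b ranked 6 among the genes most like 6430571L13Rik, and Zmynd19 ranked 15 and Arhgef10l 23 among those most like Ky. The genes beside Ostn ranked 967 or lower for Ky.

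Outside muscle, the 4 genes behaved differently from each other. Tmem132b was abundant in some adipose samples, 6430571L13Rik was read at a low level in each tissue, and Ky and Ostn were close to the limit of detection in adipose tissue and liver. All values between tissues rest on the authors' factor, which lowers the adipose values relative to plain CPM. A muscle value was above each adipose and liver value of its age for Ky (8.14 or more against at most 0.697 at 5 months, and 32.1 or more against at most 1.15 at 20 months) and for Ostn (3.76 or more against at most 0.111, and 22.5 or more against at most 0.0389). For 6430571L13Rik this held at 20 months (7.95 or more against at most 1.3) and not at 5 months (0.999 or more against at most 1.6). For Tmem132b it held narrowly at 20 months (10.1 or more against at most 9.43) and not at 5 months, when 3 of the 4 adipose samples were above every muscle. In plain CPM the 20-month order of Tmem132b turned, with 9.46 to 14.8 in muscle and 16.2 in adipose sample 36.

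**Figure D3:**
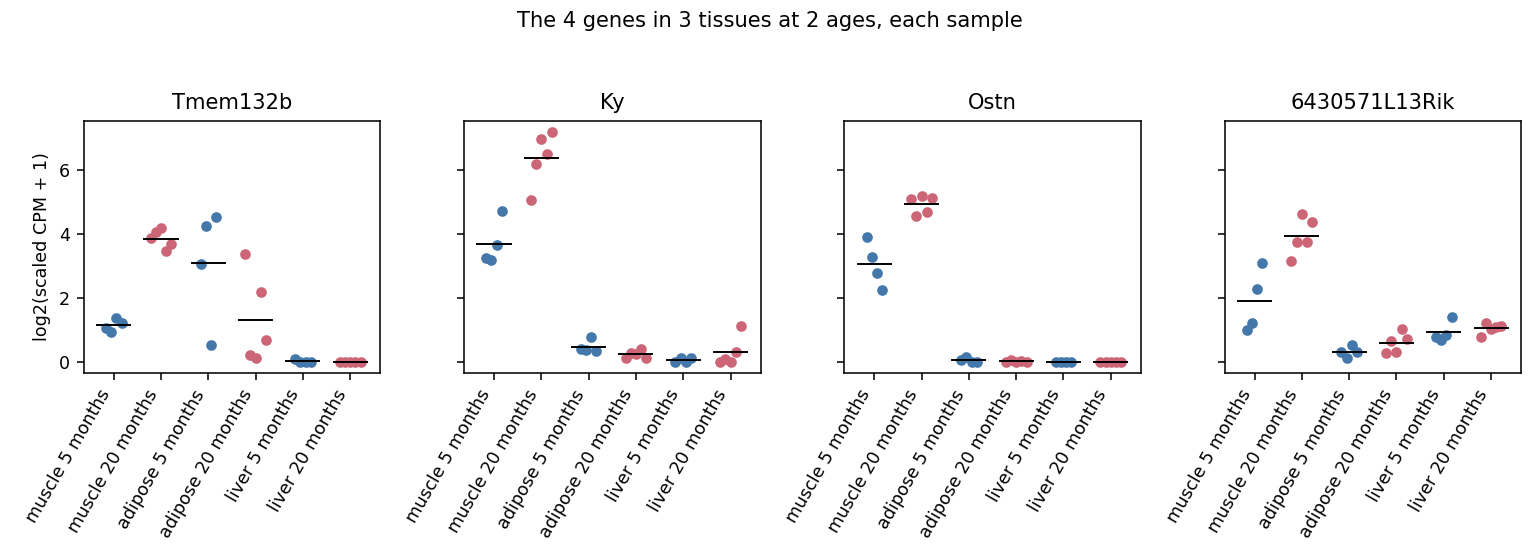
The 4 genes as log2(scaled CPM + 1) in skeletal muscle, adipose tissue and liver at 5 months (blue, n = 4 each) and 20 months (red, n = 5 each); each point is 1 sample and the line is the group mean. Ky and Ostn are near 0 outside muscle, Tmem132b spreads from near 0 to 21.8 scaled CPM in adipose tissue, and 6430571L13Rik stays at or below 1.6 in adipose tissue and liver.

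In adipose tissue Tmem132b was high in some samples of both ages and nearly absent in others. At 5 months it stood at 7.27, 17.9, 0.431 and 21.8 scaled CPM in mice A, B, C and D, and at 20 months at 9.43, 0.156, 0.0892, 3.49 and 0.597 in samples 36 to 40. The ages overlapped. The log2 difference, 20 minus 5 months, was -1.77 with an SE of 0.914 and did not pass the threshold (adjusted p = 0.172, limma; exact two-sided permutation test p = 0.159, where the smallest possible is 0.0159), in a comparison in which 19.1% of 14005 genes were called. The call depended on the fit: with all 27 samples in 1 fit the adjusted p was 0.0224, and without the adipose sample of mouse C the difference was -2.62 with an adjusted p of 0.044 (limma).

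Of 9 markers of epithelial cells, 6 separated the 5 adipose samples with the most Tmem132b from the other 4. The markers were chosen after the values were seen. In the order of samples 36 to 40, Epcam, a surface protein of epithelia, stood at 21, 0.0779, 0.773, 5.7 and 2.18, and in the order of mice A, B, C and D at 13.3, 27.9, 0.0995 and 36.8. Epcam was at least 5.7 in the 5 samples with the most Tmem132b and at most 2.18 in the other 4. The same separation was seen for Cdh1, the epithelial cadherin (at least 3.09 against at most 0.687), for Krt8 (13.6 against 7.73) and for Krt18 (6.73 against 2.82). It was narrow for Cldn7 (1.03 against 0.717) and at low values for Cldn4 (0.223 against 0.0299), which brought the count to 6 of 9. Krt7, Krt19 and Cldn3 did not separate the samples. The share of all genes that did so is not given here, so the count has no background beside it. The 9 markers summed to 32.9 to 189 at 5 months and 11.9 to 113 at 20 months. The 10 markers of the epididymis summed to 8.41 in sample 39, to 3.23 in mouse D and to at most 1.55 in the other adipose samples. Adam7 stood at 6.14 in sample 39 and 3.06 in mouse D, whereas Lcn8, Lcn9 and Gpx5 were at 0 in all 9. Muscle actin (Acta1) did not separate the samples in this way, being at least 71.8 in the 5 samples and at most 428 in the other 4. In muscle the 9 epithelial markers summed to 2.37 to 5.48 at 5 months and 3.47 to 10.7 at 20 months. Cdh1 stood at 4.92 in muscle sample 60, which had 11.8 of Tmem132b, and at 0.209 to 1.33 in the other 8 muscles. The part of epithelial cells in the adipose and muscle values was not tested.

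**Figure D4:**
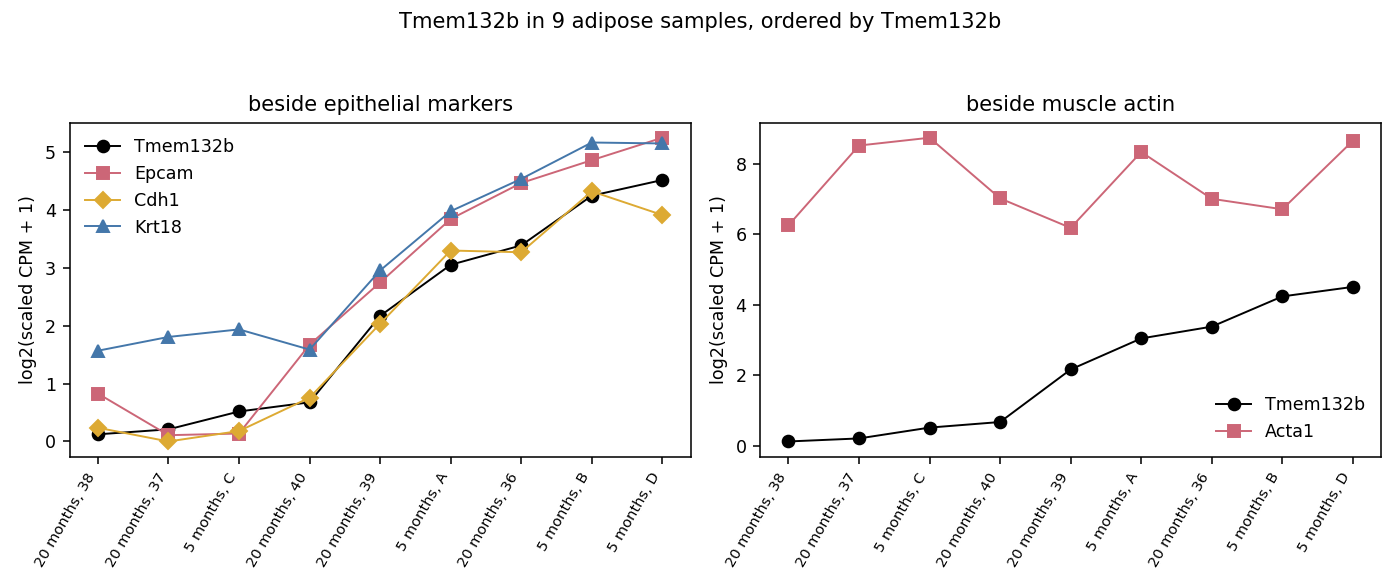
Tmem132b in 9 adipose samples, ordered by its value, beside the epithelial markers Epcam, Cdh1 and Krt18 (left panel) and beside the muscle actin Acta1 (right panel), as log2(scaled CPM + 1); each point is 1 sample and lines join the points of a gene only to guide the eye. The epithelial markers drawn are high in the same 5 samples as Tmem132b, which is at 3.49 or more there, and Acta1 is not. Among the epithelial markers not drawn, Krt7, Krt19 and Cldn3 did not separate these samples.

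The other members were too low in adipose tissue to pass the filter of the fit, which kept genes that reached 1 in 4 or more samples. Ky stood at 0.262 to 0.697 at 5 months and 0.0884 to 0.305 at 20 months, from 3 to 21 reads (exact two-sided permutation test p = 0.0476, or 0.127 adjusted over 16 such tests). 6430571L13Rik stood at 0.0739 to 0.431 and 0.206 to 1.01 (exact permutation p = 0.143, adjusted 0.317). Ostn had at most 3 reads in an adipose sample, so no difference was detectable at this depth.

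In liver, Tmem132b had 1 read in 1 of 9 samples and Ostn had 0 in all 9, where 3 reads correspond to 0.15 to 0.24 scaled CPM. The receptor that binds osteocrin, Npr3, was abundant in adipose tissue (mean 494 over 9 samples) and low in liver (2.78). 6430571L13Rik was the member that passed the filter in liver, at 0.7, 0.582, 0.784 and 1.6 at 5 months and 0.712, 1.3, 1.01, 1.14 and 1.15 in samples 16, 17, 18, 19 and 74. Its log2 difference was 0.13 with an SE of 0.191 (adjusted p = 0.659, limma; exact permutation p = 0.444), and the ages overlapped; in liver 19.8% of 12654 genes were called. Ky had 23 reads in liver sample 74, a value of 1.15, and at most 0.227 in the other 8. Skeletal muscle transcripts were nearly absent from that sample, with Acta1 at 0 and Ckm at 0.0501. It stood apart in other genes too. Its hepatocyte markers summed to 54663, against 102261 to 115185 in the other 20-month livers. Its smooth muscle and pericyte markers summed to 107, against 32.7 to 45.8. The part of these features in the Ky value was not tested.

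Between adipose tissue and liver, Tmem132b was higher in adipose tissue at both ages, and the call at 20 months depended on the fit. At 5 months its mean was 11.9 ± 9.78 (SD, n = 4) in adipose tissue and 0.0159 ± 0.0318 in liver, a ratio of 745 with a 95% counting interval of 118 to 26048 from the single liver read, and 55 if each liver is set to the limit of 3 reads; the log2 difference was 3.06 with an SE of 0.612 (adjusted p = 7.6e-05, limma over 27 samples). At 20 months, with 2.75 ± 3.99 (SD, n = 5) in adipose tissue and all 5 livers at 0, it was at least 17.6-fold higher in adipose tissue, taking 3 reads per library as the limit, and the log2 difference was 1.31 with an SE of 0.547 (adjusted p = 0.0336, limma). In the fit of 27 samples the SE also drew on the muscle values, by which the genes were chosen. With only the 18 adipose and liver samples in the fit, an alternative chosen after seeing the data, the adjusted p was 9.2e-04 at 5 months and 0.074 at 20 months (limma). Without the filter it was 0.0586 at 20 months (limma over 27 samples). Each adipose sample was above each liver at both ages (exact permutation p = 0.0286 and 0.00794, the smallest possible with 4 against 4 and 5 against 5, and 0.0914 for both adjusted over the 16 tests). At 5 months both tissues came from the same mice, and the permutation ignored this pairing, so its p-value is for unpaired samples. The call at 20 months was lost without sample 36: without it the log2 difference was 0.79 with an adjusted p of 0.155 (limma). It was also lost without sample 39 (1.10, adjusted p = 0.0919, limma). In these comparisons most genes were called, 76.4% of 15572 at 5 months and 74.5% at 20 months.

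6430571L13Rik was lower in adipose tissue than in liver in these values, at 0.24 ± 0.147 (SD, n = 4) against 0.916 ± 0.463 at 5 months and 0.525 ± 0.327 (SD, n = 5) against 1.06 ± 0.222 at 20 months, but neither log2 difference passed the threshold: -0.61 (SE 0.326, adjusted p = 0.0938, limma) and -0.45 (SE 0.292, adjusted p = 0.162, limma). The calls depended on the constant added, the samples in the fit and the scale. With a pseudocount of 0.1 the adjusted p was 0.0064 at 5 months and 0.0417 at 20 months (limma), and with the 18 adipose and liver samples it was 0.00651 and 0.0194 (limma). At 5 months it also passed at a pseudocount of 0.5 (adjusted p = 0.0368, limma), in edgeR (0.00957) and in DESeq2 (0.00224), and at 20 months with only those 2 groups in the fit (adjusted p = 0.0248, limma). In plain CPM the differences shrank to -0.25 (adjusted p = 0.471, limma) and -0.08 (0.797), and with rescaling without the 20 most abundant genes to -0.31 and -0.15. Ky passed the filter of this fit only through the muscle samples, so its limma test is not used. It differed by 0.41 on the log2 scale at 5 months (exact permutation p = 0.0286, the smallest possible with 4 against 4, and 0.0914 adjusted over the 16 tests) and by -0.07 at 20 months (exact permutation p = 0.929). The permutation at 5 months again ignored the pairing by mouse. Ostn was at or under the limit in both tissues.

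The genes around the members were described in muscle by lists, beside all 12720 genes tested, of which 19.3% were called (1161 higher and 1290 lower at 20 months; median log2 difference 0.02). With plain CPM, without the further factor, the median shifted to 0.11 and the calls to 2173 higher and 903 lower, and with rescaling without the 20 most abundant genes to 1853 and 975. The number of genes called ranged from 1158 without sample 60 to 3796 without mouse C, and was 1352, 1552 and 1518 without sample 58, sample 57 and mouse B. The members of the lists other than the 4 genes were not chosen by this contrast, but the lists were drawn up with earlier results known. Of the 4 other Tmem132 genes, only Tmem132a passed the filter, at 3.75 ± 0.593 (SD, n = 4) and 3.51 ± 0.85 (SD, n = 5), a log2 difference of -0.09 (adjusted p = 0.723, limma). Tmem132c, Tmem132d and Tmem132e did not exceed 0.403 in any muscle. In adipose tissue Tmem132a averaged 12.9 and in liver Tmem132e averaged 4.24.

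Of the 15 genes of the natriuretic peptide pathway, to which Ostn is tied through its receptor, 11 were tested, 1 was higher and 2 were lower at 20 months, with a median of -0.04. Prkg1, the cGMP-dependent kinase, rose from 41.9 ± 8.3 to 66.7 ± 7.06 (log2 difference 0.67, adjusted p = 0.0089, limma). Pde2a, a phosphodiesterase that breaks down cGMP, fell from 71.9 ± 4.45 to 47.3 ± 3.48 (-0.60, adjusted p = 0.00264, limma). Furin, a protease that cleaves propeptides, fell from 116 ± 7.22 to 82.9 ± 5.82 (-0.48, adjusted p = 0.00505, limma). The receptors did not pass the threshold: the clearance receptor Npr3 stood at 9.11 to 21.3 and 12.7 to 34.4 (log2 difference 0.69, adjusted p = 0.112, limma), Npr1 differed by -0.25 (0.135) and Npr2 by -0.04 (0.81). Mme (0.19), Prkg2 (0.08), Pde5a (-0.40), Pde3a (-0.20) and Pde9a (0.07) did not pass either. The peptide genes Nppa, Nppb and Nppc did not exceed 0.767, and with Corin were not tested.

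Of 29 genes of the Z-disc and its chaperones, where Ky acts, all were tested, 0 were higher and 7 were lower, with a median of -0.16. No gene of the list was higher at an unadjusted p under 0.05 or by edgeR or DESeq2 either, and 12 were lower at that p. Flnc, the filamin to which Ky has been linked, fell from 15398 ± 7665 to 3457 ± 2103 (log2 difference -2.17, adjusted p = 0.00589, limma), and so moved opposite to the difference in Ky. The ages nearly met for Flnc, at 7201 in mouse A and 7110 in sample 56. Its highest values were those of mice B and D (23993 and 19388). Xirp1, a filamin-binding repair protein (-2.32, adjusted p = 0.0125, limma), Csrp3 (-1.51, 0.0124) and the small heat shock protein Cryab (-1.61, 0.0139) fell, as did the cochaperone Bag3, Ankrd2 and Hspb8. Without sample 60, 4 were lower. Without the 5-month muscles of mice B and D, those with high Hspa1b, 3 were lower and 1 was higher, and 2 of the 7 calls were shared; in that fit 7.21% of 12420 genes were called, in place of 19.3%, and 34.1% of the calls over all genes were kept. The part of the heat shock genes in this list was not tested.

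Of 19 genes of muscle-secreted factors other than Ostn, 14 were tested, 2 were higher and 5 were lower, with a median of -0.43. Mstn, the growth inhibitor myostatin, fell from 96 ± 34.3 to 41 ± 13.2 (log2 difference -1.20, adjusted p = 0.0099, limma), and Sparc, a matrix glycoprotein, fell from 289 ± 47.5 to 181 ± 28.8 (-0.67, 0.00902). The cytokine Il15 rose from 5.25 ± 0.865 to 8.83 ± 1.34 (0.65, 0.0126), and Dcn, a matrix proteoglycan, fell by 0.68 (adjusted p = 0.027, limma). With plain CPM 4 were higher and 5 were lower. Without sample 57, 58 or 60 or without mouse A, 1 was higher and 3 were lower in each fit, and without the muscles of mice B and D, 2 were higher and 1 was lower. Markers of fibro-adipogenic progenitors, the matrix-producing cells of muscle, summed to 913 to 1313 in the young and 489 to 844 in the old muscles. Dcn is itself among these markers, with means of 703 and 449. Part of the fall in the sum is therefore that of Dcn, and the other markers of the sum fell too. Dcn and Sparc are expressed by the progenitors, and the part of these cells in both differences was not tested.

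Of 24 genes of the neuromuscular synapse and of denervation, 23 were tested, 2 were higher and 6 were lower, with a median of -0.20. Dach2 rose (log2 difference 1.80, adjusted p = 7.2e-05, limma). Rapsn, which anchors acetylcholine receptors at the synapse, rose by 0.50 (adjusted p = 0.0486, limma). Gadd45a fell from 101 ± 20 to 48.3 ± 7.6 (-1.04, 0.00221), Trim63 from 3436 ± 809 to 1035 ± 419 (-1.78, 0.00245) and Musk, the synaptic receptor kinase, from 90.7 ± 43.1 to 26.8 ± 13.6 (-1.71, 0.00908), and Runx1, Myog and Fbxo32 were the other genes called lower. With plain CPM 3 were higher and 5 were lower. The calls were 4, 5 and 4 without samples 58, 59 and 60, and without the muscles of mice B and D, 1 was higher and 3 were lower. Of 14 fast fibre genes 0 were called by limma (2 by edgeR and 2 by DESeq2, all lower), 1 was higher and 0 were lower at an unadjusted p under 0.05, and the median was 0.06. Without the muscle of mouse C, 3 fast fibre genes were called higher. Of 11 slow fibre genes, Casq2 was higher (0.90, adjusted p = 0.0147, limma) and Myh7b was lower (-0.56, 0.0233), with a median of -0.35, in a comparison that includes the muscle with high Myh7. Without sample 58, or without mouse D, only Casq2 was called, and without mouse A, 3 were called. Without the muscles of mice B and D, neither Casq2 nor Myh7b was called by limma.

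**Figure D5:**
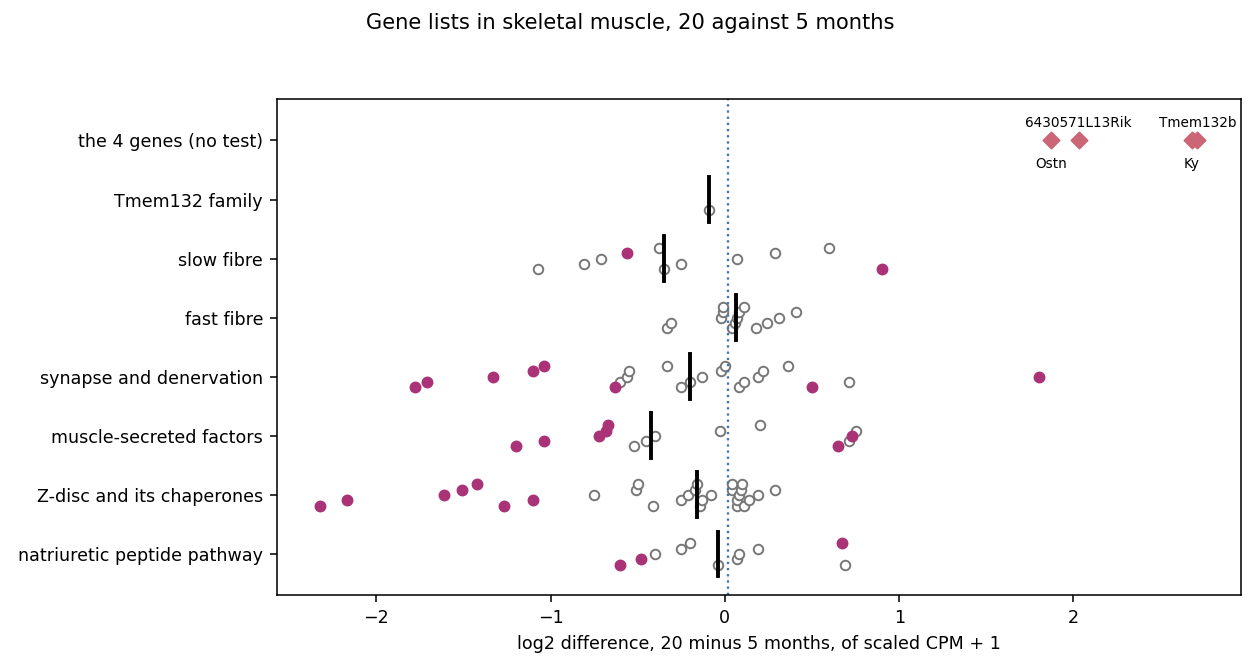
Log2 difference, 20 minus 5 months, of scaled CPM + 1 in skeletal muscle (horizontal axis) for each tested gene of 7 lists, with genes called by limma filled and the others open; the black bar is a list's median, the dotted line the median of all genes (0.02), and the diamonds the 4 genes chosen by this value. Called Z-disc genes all lie to the left, and Dach2, at 1.80, lies farthest to the right among the lists.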

How the data were processed

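Messenger RNA of liver, omental adipose tissue and skeletal muscle of MlxKO mice was sequenced by the authors, who used CLC Genomics Workbench to count the reads of each gene. Groups are the combinations of tissue and age in the labels. What the authors deposited is a scaled signal: CPM, divided by a further factor in each sample; the design had assumed plain CPM, and its tests were kept. 100% of values were whole multiples of 1 read (tolerance 0.05), and reads were recovered from that step. Samples held 14384695 to 25673919 reads on genes; 0 pairs of samples were identical. The submitters' processing notes name GRCm38.p6 and mm10; the genome used in CLC and the strand setting are not given in the sources used here.

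Log2(value + 1) was tested with limma 3.58.1 (R 4.3.3) with a variance trend, on genes that reached a value of 1 in 4 or more samples, and p-values were adjusted by Benjamini and Hochberg's method, with 0.05 as the threshold: by age within a tissue, and between adipose tissue and liver in 1 fit of 27 samples. All 4 members passed in muscle and in that fit (Ky and Ostn only through muscle), 1 (Tmem132b) in adipose tissue and 1 (6430571L13Rik) in liver. A fit of 27 samples drew its error on the muscles too, whose values had chosen the members. Single values were compared by exact permutation tests in scipy 1.17.1, which did not keep the pairing of tissues by mouse at 5 months. Counting intervals and the limit of 3 reads cover counting error only. At 5 months the liver and adipose samples come from the same mice, by their numbers, and a replicate block was an alternative (consensus correlation 0.101); at 20 months no number is shared. Samples of a group carry different numbers and were treated as separate mice; p-values measure the spread between these samples.

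The members and gene lists were chosen with earlier results of these data known. Named besides the members are the genes that overlap them, the 5 genes that follow them in rise among called genes with a mean of at least 1 and no overlap of ages, the 3 genes most like each member, the tested Tmem132 and natriuretic genes, and up to 4 called genes per other list with the smallest adjusted p; Bag3, Ankrd2 and Hspb8, Casq2 and Myh7b, Rapsn, Runx1, Myog and Fbxo32 complete their counts. Other genes beside a result (Hspa1b, Arntl, the epithelial markers, Flnc and Trim63 by sample) were chosen after their values were seen. Alternatives were other pseudocounts, filters, scalings and fits, edgeR 4.0.16, DESeq2 1.42.0, and each sample left out. The procedures were tested on simulated reads with the same dispersion for every gene, which does not cover the wider spread of some members. With limma, 2-fold changes were recovered least often between adipose tissue and liver at 5 months (70 of 100, with 30 false calls in that fit). They were recovered most often in adipose tissue by age (84 of 100, with 12 false calls). Promoter sequences are from RefSeq, read on GRCm38.p6.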

Additional observations from a re-analysis of the deposited data

Results flagged for a closer look

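A sample lay far from the rest of its group, by Dixon's 95% criterion, in 2 of 17 groups of the 4 genes with more than 3 reads in a sample; chance gives about 1 in 20. Ky in the 5-month adipose tissue of mouse C stood at 0.697 scaled CPM, against 0.262 to 0.319 in the other 3. The muscle actin Acta1 was highest in that sample of the 5-month adipose tissues (428 against 104 to 403). The 12 muscle fibre markers together were not: they summed to 1055 there and to 1180 in mouse D, where Ky stood at 0.262. The part of muscle RNA in the value was not tested. Ky in liver sample 74 stood at 1.15, against 0 to 0.227 in the other 20-month livers; Acta1 was at 0 there. Without that liver, the adipose minus liver difference of Ky at 20 months was 0.13 on the log2 scale.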

How the results depend on the processing

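The median log2 difference of the 4 genes in muscle, 2.36, kept its direction and stayed within the spread between replicates in 22 alternatives, from 2.20 to 2.61; Tmem132b alone moved from 2.71 to 3.39 and 3.04 at pseudocounts of 0.1 and 0.5, 3.48 in edgeR and 3.47 in DESeq2. In adipose tissue, the difference of Tmem132b was -1.77, with adjusted p from 0.0224 to 0.364 over 21 alternatives (limma, edgeR and DESeq2). It passed the threshold with all 27 samples in 1 fit (-1.77, adjusted p = 0.0224) and in the same fit with the mouse as a replicate block (-1.77, adjusted p = 0.0232), so the block itself did not change the call, and 1 sample left out gave -2.62 to -1.29, passing without mouse C. The difference between adipose tissue and liver at 5 months kept its call in 19 alternatives, the replicate block among them (3.06, adjusted p = 4.1e-05, limma). At 20 months it was lost without the filter (1.31, adjusted p = 0.0586, limma) and with only the 18 adipose and liver samples (1.31, adjusted p = 0.074, limma), added after the data were seen, and with 1 sample left out it ranged from 0.79 to 1.61 and was lost in 6 of 10 fits, 4 of them with a liver left out, at an adjusted p of 0.0504 to 0.0509; the cause was not tested. The replicate block kept it (1.31, adjusted p = 0.035). The difference of 6430571L13Rik by age in liver did not pass in any of 18 alternatives. The difference of Ky between adipose tissue and liver is given without its fitted tests, because the filter was passed only through muscle. It was 0.41 at 5 months (1.82 at a pseudocount of 0.1 in limma, 3.26 in edgeR and 3.43 in DESeq2). At 20 months it was -0.07. It turned to 0.19 at a pseudocount of 0.1, to 0.03 with rescaling without the 20 most abundant genes and to 0.05 in plain CPM. Without liver 74 it was 0.13, and over each sample left out it ran from -0.14 to 0.13. Of 99 tested genes of the lists in muscle, 27 were called (6 higher, 21 lower; 10 and 20 in plain CPM), and the count moved to 15 without the filter, with 111 genes tested, and to 14 without the 5-month muscles of mice B and D, added after the data were seen, of which 11 were shared, while all genes called moved from 2451 to 895; 1 sample left out gave 18 to 34, the replicate block 27 and DESeq2 38. No value was given for 6430571L13Rik in liver with a mean of at least 5 or in plain and rescaled CPM, nor for Tmem132b between tissues with that mean or in a fit of only the 2 groups, because the genes did not pass those filters. Depth limits Ostn outside muscle and Tmem132b in liver to an upper limit.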

Other observations

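Per3, a component of the circadian clock, separated the ages in muscle as the 4 genes did and was chosen after its values were seen. It stood at 7.53, 5.32, 7.28 and 9.69 scaled CPM in the muscles of mice A, B, C and D, and at 14.6, 18.3, 26, 33.4 and 36.1 in samples 56 to 60. In liver it stood at 1.43 to 3.18 at 5 months and at 2.29 to 32.1 at 20 months, where sample 74, the liver with the most Ky, was the highest. In adipose tissue the ages overlapped, at 20.1 to 35.5 and 17.8 to 32.9. Arntl, another clock gene, stood lower at 20 months, at 129 to 157 against 41.8 to 106 in muscle and 34.1 to 49.2 against 10.8 to 31.1 in liver, with an overlap in adipose tissue (22.1 to 43.5 against 15.6 to 25.3). The time of day at which tissues were taken is not given in the sources used here, and its part in these values was not tested.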
